A study of Mus musculus with 66 samples.

Results

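The 38 genes described here carry glucose into the cell, through glycolysis to pyruvate and lactate, into the mitochondrion as acetyl-CoA, and around the pentose phosphate pathway. They were chosen by gene name, with earlier results of these data known. Their shares beside those of all genes are therefore descriptive. Of the 38, 37 are among the 13957 genes of the expression table and Pfkfb4 is not. RNA levels are given in TPM, transcript abundance relative to the library total after scaling for gene length. At least 1 TPM in at least 1 group was reached by 32 of the 37, and by 8999 genes of the whole table. Hk1, Pfkm, Pfkfb2, Pfkfb3 and Pdk2 stayed below 1 TPM in every group.

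RNA was sequenced from mouse embryonic stem (ES) cells of 129/Ola origin, an E14Tg2a derivative whose Esrrb and Nr5a2 proteins can be removed by adding auxin. Esrrb and Nr5a2 are nuclear receptors that bind DNA and help to keep ES cells pluripotent. Cells with auxin and cells without auxin were each sampled in mitotic arrest, every 10 minutes between 20 and 60 minutes after release from it, again 90 and 120 minutes after release, and in asynchronous culture, which makes 18 groups of 3 RNA libraries. Nr5a2 ChIP-seq with matching input came from 12 libraries of wild-type E14Tg2a cells in interphase and in mitosis. The arm of an RNA library was taken from its title, since the treatment entry reads ctl for every library. Cells without auxin carry the same degradable receptors, and no group had auxin without them, so the effects of auxin, of losing Esrrb and of losing Nr5a2 cannot be told apart. The labels do not state whether replicate libraries stem from separate cultures.

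Glycolysis splits glucose into pyruvate in the cytosol and yields ATP without oxygen. Pyruvate is then either reduced to lactate and exported, or passed to the pyruvate dehydrogenase complex, which feeds the citric acid cycle and which the pyruvate dehydrogenase kinases switch off. The pentose phosphate pathway branches off at glucose 6-phosphate and supplies NADPH and ribose 5-phosphate for nucleotides. Naive mouse ES cells are known to use both glycolysis and respiration, and transcription of most genes pauses in mitosis and restarts as cells enter G1.

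Every level below is the authors' mean TPM of a group, so no value has a spread between libraries, no difference has a test, and folds describe these means only. The depth per library is unknown, and the sources do not tell whether spliced or unspliced RNA was quantified. In bulk RNA, fewer cells of a type and less RNA per cell cannot be told apart. Of the ES cell markers, 7 of 8 were listed and all 7 reached 1 TPM, while Sox2 was not listed. In asynchronous cells Pou5f1 had 9.72 TPM with auxin and 9.94 TPM without, Nanog 2.31 TPM with auxin and 3.58 TPM without, Zfp42 35.2 TPM with auxin and 52.8 TPM without, Klf4 0.542 TPM with auxin and 1.25 TPM without, and Tfcp2l1 0.86 TPM with auxin and 2.47 TPM without. The median difference of the 7 on log2(TPM + 1), with auxin minus without, was -0.23 over the release and -0.47 in asynchronous cells, and the part of these markers' differences in the results below was not tested. All 7 are called lower in the authors' deposited table, Esrrb and Nr5a2 included, and the RNA does not show the degradation of the 2 proteins themselves. The 4 fibroblast and 3 primitive endoderm markers that were listed stayed below 1 TPM in every group, while Col1a2, Col3a1, Sox17 and Sox7 were not listed. The listed genes summed to 17155 to 49059 TPM per group. Gapdh, Pgk1, Aldoa, Tpi1, Ldha, Pgam1, Eno1 and Pkm have close copies elsewhere in the mouse genome, so their levels are uncertain.

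The comparison of the arms asks which genes differ in level at each stage when both receptors are removed. A difference after release includes any that was already present in mitosis. On log2(TPM + 1), Pdk1 was at -0.29 both in mitosis and over the release, whereas Ldhb was at -0.41 in mitosis and -0.61 over the release. The authors' deposited table calls 8 of the 37 genes lower with auxin, against 7.26% of all its genes: the glucose transporters Slc2a1 and Slc2a3, Hk2, Gpi1 and Pfkp of upper glycolysis, Eno3, Ldhb and Pdk1. It calls 3 of the 37 higher, against 6.74% of all genes: Pfkfb2, Pfkfb3 and Pdk3. Among the 37, none of the 7 pentose phosphate genes and none of the 3 pyruvate dehydrogenase complex genes carries a call in the authors' deposited table. Among genes of at least 1 TPM, the deposited calls by the authors are 8 of 32 lower (9.46% of all such genes) and 1 of 32 higher (8.52%). The sources used here do not give the test, threshold or stages behind these calls.

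The difference between arms was taken as log2(TPM + 1) with auxin minus without auxin, a scale that understates differences of low genes. Its mean over the 7 release times was below 0 for 26 of the 32 genes, against 39.2% of all genes. After subtracting the all-gene median at each stage, it was below 0 for 87.5% of the 32 and 49.4% of all genes. The median was -0.04 over the 32 genes and 0.02 over all genes, so most of these differences were small. Slc2a3, Hk2, Gpi1, Pfkp, Aldoa, Pgam1, Ldhb and Pdk1 were lower with auxin at all 7 release times (8 of 32, against 5.33% of all genes). The same 8 were also lower in mitosis and in asynchronous cells, which makes all 9 stages (4.41% of all genes). Pkm was higher with auxin at all 7 times, as 1 of 32 against 3.88%. A release mean at least 1.5-fold lower was seen for Ldhb, 1 of 32, against 0.0667% of all genes.

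Stage by stage, the share of all genes lower with auxin moved widely, and the count for these genes is read beside it. In mitosis 24 of 32 were lower, against 46.2% of all genes. After release the count was 24 at 20 minutes (69% of all genes), 23 at 30 (29.6%), 17 at 40 (28.3%) and 21 at 50 (48.9%). Later it was 28 at 60 minutes (80.5%), 25 at 90 (36.5%) and 21 at 120 (33.8%). The 60-minute count is therefore close to that of all genes, while at 30 and 90 minutes it is well above. In asynchronous cells 25 of 32 were lower, against 71% of all genes, and the median difference was -0.08, against -0.04 over all genes. That count was 19 under quantile normalization (44.7% of all genes) and 20 when each stage was centred on its median (50%). A 1.5-fold lower level in asynchronous cells was seen for Ldhb and Pfkp, 2 of 32 against 0.489% of all genes.

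**Figure D1:**
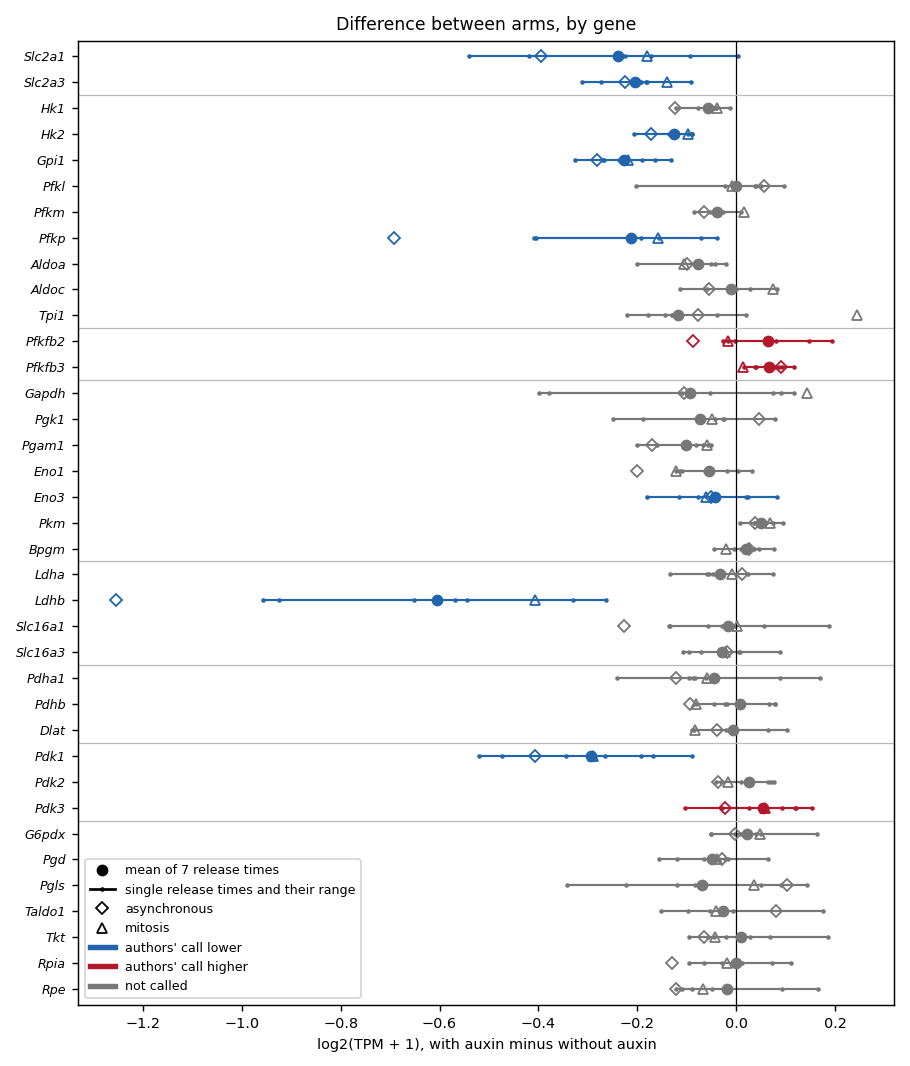
Difference between arms for the 37 genes in order of pathway role, in log2(TPM + 1) with auxin minus without auxin; filled circles are means of 7 release times, small dots single times, lines their range, diamonds asynchronous cells, triangles mitosis, and colour the authors' call. Ldhb lies farthest left, at -0.61 over the release and -1.25 in asynchronous cells, and Pfkp comes next in asynchronous cells at -0.69.

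Glucose enters ES cells through the facilitative transporters Slc2a1 (GLUT1) and Slc2a3 (GLUT3), and both were lower with auxin. With auxin, Slc2a1 stood at 3.82 TPM in mitosis, then 3.8, 4.05, 5.61, 10.6, 12.3, 10.7 and 10.8 TPM, and 15.1 TPM in asynchronous cells. Without auxin, it stood at 4.47 TPM in mitosis, then 4.63, 4.39, 5.6, 12.1, 14.5, 16.1 and 14.8 TPM, and 20.2 TPM in asynchronous cells. The values after mitosis follow the order of the 7 release times, here and below. The arms were level at 40 minutes and lay farthest apart at 90 minutes, with a difference of -0.54 there, -0.24 over the release and -0.40 in asynchronous cells. Both arms were highest in asynchronous cells, so 120 minutes after release the gene was at 0.72-fold its asynchronous level with auxin and 0.73-fold without. Slc2a3 was lower with auxin at every stage: 1.76 TPM in mitosis, then 1.74, 1.78, 2.23, 3.17, 3.82, 3.57 and 2.63 TPM, and 2.89 TPM in asynchronous cells with auxin, against 2.04 TPM in mitosis, then 2.1, 1.96, 2.67, 3.77, 4.83, 4.68 and 3.16 TPM, and 3.55 TPM in asynchronous cells without. Its release difference was -0.20, and with auxin it averaged 81.8% of the level without.

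Upper glycolysis primes and splits the sugar. Hexokinase 2 (Hk2) phosphorylates glucose, and its level with auxin was 2.87 TPM in mitosis, then 2.92, 3.15, 4.0, 7.97, 11.2, 8.43 and 5.52 TPM, and 5.45 TPM in asynchronous cells, against 3.14 TPM in mitosis, then 3.3, 3.42, 4.32, 8.6, 12.4, 9.37 and 6.53 TPM, and 6.27 TPM in asynchronous cells without. It peaked at 60 minutes in both arms and then returned close to the asynchronous level, at 1.01-fold of it with auxin and 1.04-fold without at 120 minutes. The difference between arms was small but of the same sign at all 9 stages, -0.13 over the release. Hk1, the other hexokinase listed, did not exceed 0.462 TPM, and was also lower with auxin at all 9 stages without a call in the authors' deposited table.

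Glucose-6-phosphate isomerase (Gpi1), which makes fructose 6-phosphate, was lower with auxin throughout. With auxin it measured 2.53 TPM in mitosis, then 2.64, 2.71, 3.25, 6.05, 8.1, 7.98 and 7.05 TPM, and 6.16 TPM in asynchronous cells. Without auxin it measured 3.11 TPM in mitosis, then 3.08, 3.37, 3.85, 6.72, 9.97, 9.8 and 9.08 TPM, and 7.7 TPM in asynchronous cells. The difference lay between -0.33 and -0.13 at the 7 times, and the level with auxin was 82.3% of that without over the release and 80.0% in asynchronous cells. The start of Gpi1 is shown because 1 of its 5 Nr5a2 peaks, of class eB at chr7:34230312-34230994, lies over it. The RefSeq promoter window of GRCm38.p6 runs from 250 bases before the start to 50 after, here chr7:34230287-34230586 on the minus strand, printed in the direction of transcription. The capitals mark 7 letters that fit AAGGNCA on the opposite strand, with their first letter at -163 from the start.
Gpi1 promoter: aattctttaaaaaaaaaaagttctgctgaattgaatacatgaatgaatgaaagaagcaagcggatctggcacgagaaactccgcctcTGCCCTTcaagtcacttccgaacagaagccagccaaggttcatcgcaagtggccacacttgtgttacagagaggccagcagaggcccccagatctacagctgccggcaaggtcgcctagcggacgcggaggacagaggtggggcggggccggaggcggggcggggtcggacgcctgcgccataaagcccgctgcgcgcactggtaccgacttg

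Phosphofructokinase commits the sugar to glycolysis, and its 3 genes behaved differently. The platelet form Pfkp had 0.695 TPM in mitosis, then 0.623, 0.636, 0.617, 0.716, 0.93, 0.949 and 0.818 TPM, and 2.76 TPM in asynchronous cells with auxin, against 0.891 TPM in mitosis, then 0.881, 0.719, 0.661, 0.913, 1.21, 1.58 and 1.41 TPM, and 5.08 TPM in asynchronous cells without. It was thus low through the whole release in both arms, at most 1.37-fold above mitosis with auxin and 1.77-fold without, and high in asynchronous cells, where it ranked 26 among 8999 genes from the lowest difference between arms. In those cells the level with auxin was 54.4% of that without. The liver form Pfkl, by contrast, had 3.74 TPM at 60 minutes with auxin and 3.62 TPM without, and 3.62 TPM with auxin and 3.44 TPM without in asynchronous cells. Its release difference was -0.000469, with 3 of 7 times lower. The muscle form Pfkm did not exceed 0.566 TPM.

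The aldolases and triose phosphate isomerase complete the upper part. Aldolase A (Aldoa) was lower with auxin at all 9 stages, with a release difference of -0.08 and 4.28 TPM with auxin and 4.67 TPM without in asynchronous cells. Aldolase C (Aldoc) was near 0 in mitosis, at 0.208 TPM with auxin and 0.148 TPM without, and 60 minutes after release stood at 1.98 TPM with auxin and 1.93 TPM without. By 120 minutes it was back at 0.565 TPM in both arms, which is close to its asynchronous level. Triose phosphate isomerase (Tpi1) had 1.29 TPM in mitosis, then 1.15, 1.27, 3.05, 5.24, 5.09, 3.55 and 3.34 TPM, and 4.43 TPM in asynchronous cells with auxin, against 0.935 TPM in mitosis, then 1.51, 1.57, 3.0, 5.89, 5.26, 3.98 and 3.75 TPM, and 4.73 TPM in asynchronous cells without. It was lower with auxin at 6 of 7 release times but higher in mitosis, where the difference was 0.24.

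The 6-phosphofructo-2-kinases set fructose 2,6-bisphosphate, the strongest activator of phosphofructokinase. Pfkfb2 and Pfkfb3 are called higher in the authors' deposited table although neither reached 1 TPM. Pfkfb3 was higher with auxin at all 9 stages, with 0.251 TPM in mitosis, then 0.241, 0.259, 0.34, 0.799, 0.992, 0.531 and 0.448 TPM, and 0.637 TPM in asynchronous cells with auxin, against 0.239 TPM in mitosis, then 0.228, 0.224, 0.305, 0.659, 0.868, 0.451 and 0.364 TPM, and 0.537 TPM in asynchronous cells without. Pfkfb2 was higher at 4 of 7 release times, by 0.19 at 40 minutes where the arms differed most, and lower with auxin in asynchronous cells, at 0.382 TPM with auxin and 0.469 TPM without.

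**Figure D2:**
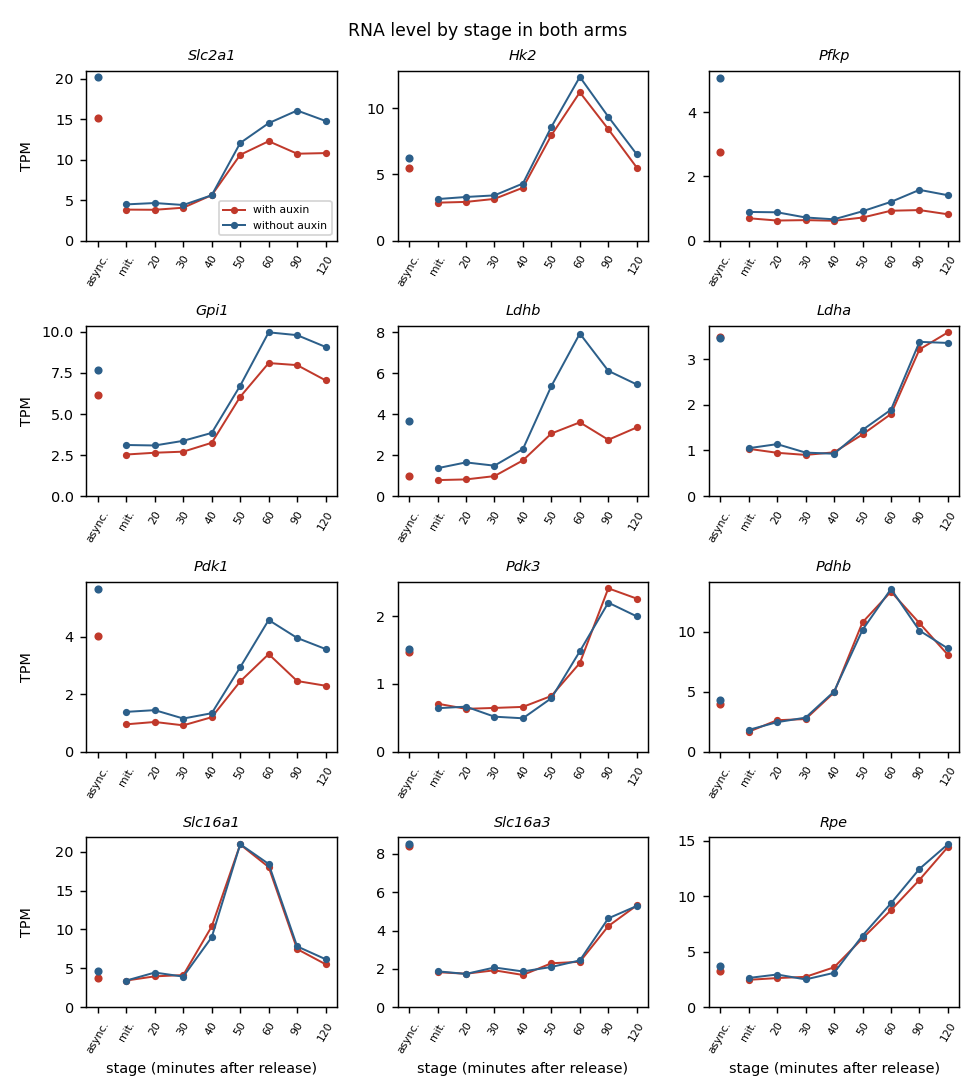
RNA level in TPM (vertical axis, from 0) by stage in minutes after release (horizontal axis) for 12 genes, with auxin in red and without auxin in blue; each point is the authors' mean of 3 libraries and carries no error. Ldhb, Pdk1, Pfkp, Gpi1, Slc2a1 and Hk2 lie lower with auxin over most or all of the release, while the lines of Pdhb, Slc16a1, Slc16a3, Ldha and Rpe lie close together.

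Lower glycolysis recovers ATP and ends in pyruvate, and it held the highest levels. Pyruvate kinase M (Pkm), the last step, had 24 TPM in mitosis, then 23.4, 22.8, 21.7, 28.7, 33.9, 34.3 and 31.9 TPM, and 33.8 TPM in asynchronous cells with auxin, against 22.9 TPM in mitosis, then 23.3, 22.2, 20.2, 27.2, 33, 33.4 and 30.5 TPM, and 32.8 TPM in asynchronous cells without. Its levels moved least of the 37 genes after mitosis in fold of TPM without auxin, 1.46-fold at most, and it was higher with auxin at all 9 stages by a release difference of only 0.05; under quantile normalization its asynchronous difference was 0. Phosphoglycerate mutase 1 (Pgam1) was lower with auxin at all 9 stages, with a release difference of -0.10, and had 16.2 TPM at 60 minutes with auxin and 16.9 TPM without. Phosphoglycerate kinase 1 (Pgk1), the first ATP-yielding step, had 10.7 TPM with auxin and 11.3 TPM without at that time, and 10.9 TPM with auxin and 10.5 TPM without in asynchronous cells. Glyceraldehyde-3-phosphate dehydrogenase (Gapdh), often used as a loading control, was listed at low levels, at most 1.98 TPM with auxin and 2.54 TPM without. Its difference between arms ran from -0.40 at 90 minutes to 0.12 at 50 minutes.

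Enolase 1 (Eno1), the widely expressed enolase, had 8.45 TPM in mitosis, then 8.36, 9.02, 13.5, 22, 24.1, 20.6 and 16.3 TPM, and 14.9 TPM in asynchronous cells with auxin, against 9.28 TPM in mitosis, then 9.17, 9.0, 13.2, 23.1, 24.4, 22.4 and 17.6 TPM, and 17.3 TPM in asynchronous cells without. The arms differed little during the release (-0.06) and more in asynchronous cells (-0.20), and the gene carries no call in the authors' deposited table. Muscle enolase (Eno3) is called lower in the authors' deposited table, yet its levels were low and crossed: 0.267 TPM in mitosis, then 0.284, 0.272, 0.595, 1.34, 1.26, 1.13 and 0.86 TPM, and 0.56 TPM in asynchronous cells with auxin, against 0.323 TPM in mitosis, then 0.354, 0.317, 0.574, 1.21, 1.45, 1.1 and 1.11 TPM, and 0.617 TPM in asynchronous cells without. It was lower with auxin at 4 of 7 release times, and the release difference was -0.04. Bisphosphoglycerate mutase (Bpgm), which makes 2,3-bisphosphoglycerate, reached 1.12 TPM with auxin and 1.1 TPM without, both at 120 minutes.

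Nuclear receptors of the Esrrb and Nr5a2 type bind TCAAGGTCA, a half-site with a short extension, whose core is AAGGTCA. The first of 3 RefSeq promoter windows of Eno1, chr4:150236458-150236757 on the plus strand, is shown because it is the only one of the members' promoter windows that holds AAGGTCA and also lies under an Nr5a2 peak, of class dB at chr4:150236040-150236875. The capitals mark AAGGTCA, with its first letter at -163 from the start, and AAGGACA, at -118, both on the strand of the gene.
Eno1 promoter: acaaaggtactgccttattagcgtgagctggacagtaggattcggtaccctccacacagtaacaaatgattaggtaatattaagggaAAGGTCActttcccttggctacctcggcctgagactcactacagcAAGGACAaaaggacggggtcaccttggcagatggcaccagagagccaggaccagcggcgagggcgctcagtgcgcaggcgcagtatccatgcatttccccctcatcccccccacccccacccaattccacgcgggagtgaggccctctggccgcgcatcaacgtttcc

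At the end of glycolysis, lactate dehydrogenase interconverts pyruvate and lactate. The 2 of its subunit genes among the 37 behaved differently between the arms. Ldhb, the subunit that favours lactate oxidation, had 0.782 TPM in mitosis, then 0.814, 0.976, 1.74, 3.06, 3.6, 2.75 and 3.35 TPM, and 0.962 TPM in asynchronous cells with auxin. Without auxin it had 1.36 TPM in mitosis, then 1.65, 1.48, 2.29, 5.37, 7.94, 6.12 and 5.45 TPM, and 3.68 TPM in asynchronous cells. Every stage was lower with auxin, and the highest level reached with auxin, 3.60 TPM at 60 minutes, was below the asynchronous level without auxin. In asynchronous cells the level with auxin was 26.1% of that without, the second lowest log2(TPM + 1) difference of 8999 genes, at -1.25. Over the release it was 53.8%, with a difference of -0.61 that ranked 6 from the lowest. On log2(TPM + 1), Ldhb alone among the 32 genes was 1.5-fold lower at single release times, namely 50 (0.167% of all genes), 60 (0.311%) and 90 minutes (0.4%). In plain TPM, with no pseudocount, Ldhb was 1.5-fold lower at 6 of the 7 times, all but 40 minutes. By that measure 6 of the 32 genes were 1.5-fold lower at 1 time or more, against 6.28% of all genes. Beside Ldhb these were Pfkp and Pdk1 at 90 and 120 minutes, Pgls at 30 and 40, Gapdh at 90 and Aldoc at 30, with Pfkp, Pgls and Aldoc below 1 TPM with auxin at those times. None of the 32 was 1.5-fold higher in plain TPM, against 5.46% of all genes. It still came up after mitosis with auxin, to 4.60-fold its mitotic TPM at 60 minutes, against 5.83-fold without auxin.

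Ldha, the subunit that favours lactate formation, showed none of this. It had 1.03 TPM in mitosis, then 0.948, 0.901, 0.958, 1.35, 1.8, 3.21 and 3.58 TPM, and 3.49 TPM in asynchronous cells with auxin, against 1.05 TPM in mitosis, then 1.14, 0.952, 0.927, 1.45, 1.89, 3.38 and 3.35 TPM, and 3.45 TPM in asynchronous cells without. The release difference was -0.03 and the asynchronous difference 0.01. With auxin, Ldha therefore exceeded Ldhb in asynchronous cells, 3.49 TPM to 0.962 TPM, whereas without auxin they were close, at 3.45 TPM and 3.68 TPM. TPM is scaled for gene length, but Ldha has close copies and the kind of RNA quantified is not known, so the order of these 2 levels is uncertain.

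The start of Ldhb lies under 1 of its 2 Nr5a2 peaks, of class dB at chr6:142506876-142508640, whose centre is 199 bases downstream of the start, and no other protein-coding gene lies within 10 kb. The promoter window is chr6:142507908-142508207 on the minus strand of GRCm38.p6. It holds neither TCAAGGTCA nor AAGGTCA. The capitals mark 2 matches to the looser AAGGNCA, at -202 from the start on the strand of the gene and at -108 on the opposite strand.
Ldhb promoter: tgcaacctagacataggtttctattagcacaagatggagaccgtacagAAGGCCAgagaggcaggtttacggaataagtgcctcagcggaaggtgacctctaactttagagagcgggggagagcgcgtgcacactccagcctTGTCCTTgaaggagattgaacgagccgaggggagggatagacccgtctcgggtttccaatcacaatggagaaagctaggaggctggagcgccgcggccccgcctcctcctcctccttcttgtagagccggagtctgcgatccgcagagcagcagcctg

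The monocarboxylate transporters that move lactate across the membrane returned at different times but alike in both arms. Slc16a1 (MCT1) had 3.44 TPM in mitosis, then 3.98, 4.14, 10.4, 20.9, 18, 7.48 and 5.53 TPM, and 3.8 TPM in asynchronous cells with auxin, against 3.44 TPM in mitosis, then 4.46, 3.94, 9.01, 21, 18.4, 7.82 and 6.18 TPM, and 4.61 TPM in asynchronous cells without. It was among the earliest and most transient genes, 6.08-fold above its mitotic TPM at 50 minutes with auxin and 6.10-fold without, and at 120 minutes back to 1.46-fold its asynchronous level with auxin and 1.34-fold without. Slc16a3 (MCT4) went the other way, with 1.83 TPM in mitosis, then 1.75, 1.93, 1.68, 2.29, 2.37, 4.23 and 5.31 TPM, and 8.38 TPM in asynchronous cells with auxin, against 1.87 TPM in mitosis, then 1.74, 2.07, 1.87, 2.1, 2.44, 4.63 and 5.28 TPM, and 8.51 TPM in asynchronous cells without. At 120 minutes it was at 0.63-fold its asynchronous level with auxin and 0.62-fold without. Neither carries a call in the authors' deposited table.

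Pyruvate dehydrogenase kinases phosphorylate and switch off the pyruvate dehydrogenase complex, and 2 of the 3 listed carry opposite calls in the authors' deposited table. Pdk1, called lower, had 0.954 TPM in mitosis, then 1.04, 0.918, 1.2, 2.45, 3.4, 2.46 and 2.3 TPM, and 4.04 TPM in asynchronous cells with auxin, against 1.39 TPM in mitosis, then 1.45, 1.16, 1.34, 2.94, 4.59, 3.96 and 3.58 TPM, and 5.68 TPM in asynchronous cells without. All 9 stages were lower with auxin, by -0.29 over the release and -0.41 in asynchronous cells, and the arms lay farthest apart at 90 minutes, at -0.52. Pdk3, called higher, had 0.708 TPM in mitosis, then 0.632, 0.646, 0.661, 0.823, 1.31, 2.41 and 2.26 TPM, and 1.47 TPM in asynchronous cells with auxin, against 0.641 TPM in mitosis, then 0.664, 0.516, 0.493, 0.789, 1.48, 2.2 and 2.0 TPM, and 1.51 TPM in asynchronous cells without. It was higher with auxin at 5 of 7 release times, with a release difference of 0.05, and in asynchronous cells the difference of -0.02 changed sign to 0.04 under quantile normalization and to 0.02 when each stage was centred on its median. Pdk2 did not exceed 0.323 TPM.

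Of the complex itself, the 3 genes among the 37 differed little between the arms over the release. The catalytic subunit genes Pdha1 and Pdhb and the acetyltransferase gene Dlat had release differences of -0.04, 0.01 and -0.01. None of these 3 is called in the authors' deposited table. Outside the 37, its subunit gene Dld is called higher there, with a release difference of 0.09, and Pdhx is not called, with 0.05. Dld averaged 2.0 TPM with auxin and 1.84 TPM without over the release. Pdhb had 1.67 TPM in mitosis, then 2.63, 2.72, 4.94, 10.8, 13.4, 10.7 and 8.08 TPM, and 4.02 TPM in asynchronous cells with auxin, against 1.82 TPM in mitosis, then 2.47, 2.84, 5.02, 10.2, 13.6, 10.1 and 8.62 TPM, and 4.36 TPM in asynchronous cells without. It showed the highest log2(TPM + 1) ratio to mitosis of all 37 genes at 60 minutes, 2.43 with auxin and 2.37 without. Pdha1 stood at 6.91 TPM at 60 minutes with auxin and 8.34 TPM without, but in asynchronous cells at 2.38 TPM with auxin and 2.68 TPM without, below its mitotic level in each arm. Dlat came later, with its highest release level at 90 minutes, 2.63 TPM with auxin and 2.47 TPM without.

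In the pentose phosphate pathway the release differences of all 7 genes lay between -0.07 for Pgls and 0.02 for G6pdx, while single stages of some differed more. G6pdx, glucose-6-phosphate dehydrogenase and the committed step, had 0.835 TPM in mitosis, then 0.738, 0.876, 1.8, 4.09, 4.29, 2.74 and 2.41 TPM, and 1.01 TPM in asynchronous cells with auxin, against 0.775 TPM in mitosis, then 0.802, 0.813, 1.5, 3.95, 4.48, 2.75 and 2.38 TPM, and 1.02 TPM in asynchronous cells without. Pgls, the lactonase, went both ways, with 0.307 TPM with auxin and 0.526 TPM without at 30 minutes, 0.706 TPM with auxin and 1.16 TPM without at 40, and 1.23 TPM with auxin and 1.02 TPM without at 120 minutes, or differences of -0.22, -0.34 and 0.14. Pgd, which makes ribulose 5-phosphate, completes the oxidative branch and stood at 5.98 TPM at 60 minutes with auxin and 6.78 TPM without. In the non-oxidative branch, transaldolase (Taldo1) had 5.89 TPM at 60 minutes with auxin and 6.15 TPM without. Transketolase (Tkt) was high in mitosis, at 6.68 TPM with auxin and 6.91 TPM without, and lower in asynchronous cells, at 4.67 TPM with auxin and 4.94 TPM without. Ribose 5-phosphate isomerase (Rpia) stood at 2.06 TPM with auxin and 2.27 TPM without at 60 minutes, and in asynchronous cells its level with auxin was 81.9% of that without. Ribulose 5-phosphate epimerase (Rpe) was the latest, with 2.48 TPM in mitosis, then 2.63, 2.74, 3.6, 6.2, 8.75, 11.5 and 14.4 TPM, and 3.31 TPM in asynchronous cells with auxin, against 2.64 TPM in mitosis, then 2.95, 2.51, 3.1, 6.46, 9.37, 12.5 and 14.7 TPM, and 3.69 TPM in asynchronous cells without.

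The return after mitosis is described against the mitotic group of the same arm, so all ratios of an arm share that column. The median log2(TPM + 1) ratio to mitosis over the 32 genes with auxin was 0.02 at 20 and 30 minutes, 0.33 at 40, 1.01 at 50, 1.16 at 60, 0.97 at 90 and 0.88 at 120 minutes. Without auxin it was 0.04, 0.02, 0.29, 0.95, 1.25, 1.07 and 0.87. Over all genes the ratio was 0.95 at 60 minutes with auxin and 1.01 without, so the genes came up with the table as a whole and somewhat above its median. Their summed TPM at 60 minutes was 236 with auxin and 255 without, and in mitosis 85.2 with auxin and 88.8 without. As a share of all listed TPM this was 0.508% at 60 minutes with auxin and 0.520% without, close to the mitotic 0.497% with auxin and 0.517% without. Quantile normalization of the groups, which brings the 60-minute median of all genes without auxin to 0.02, left the 32 genes at a median of 0.19 with auxin and 0.10 without.

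**Figure D3:**
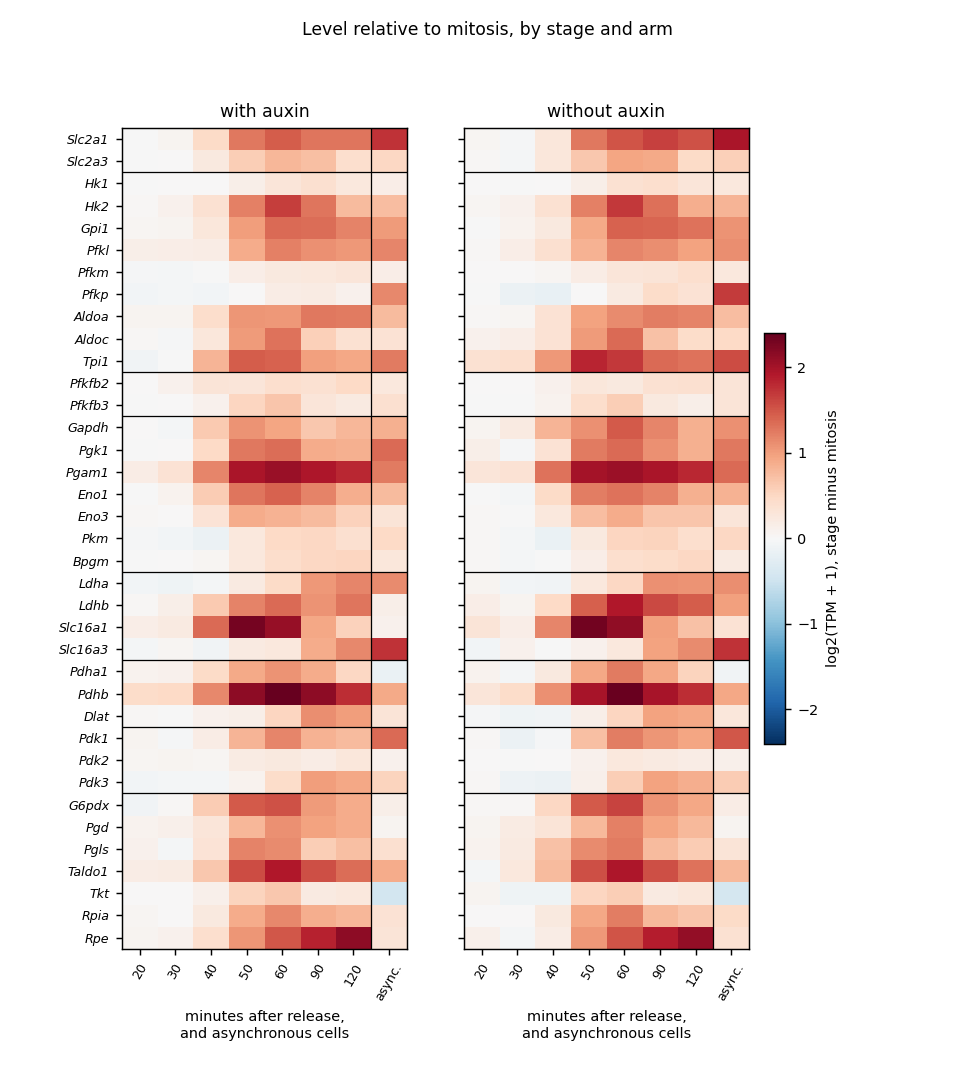
Level of each of the 37 genes relative to mitosis, as the difference in log2(TPM + 1), with auxin on the left and without auxin on the right; columns are minutes after release and asynchronous cells, and lines part the pathway roles. Most genes are darkest at 50 to 90 minutes, while Slc2a1, Pfkp, Pdk1 and Slc16a3 are darkest in asynchronous cells and Tkt and Pdha1 lie below mitosis there.

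Without auxin, a log2(TPM + 1) ratio of at least 2-fold was reached by 4 of 32 genes at 40 minutes (5.73% of all genes), 15 at 50 (30.6%), 22 at 60 (50.8%), 17 at 90 (44.9%) and 11 at 120 minutes (33.1%). With auxin it was 21 of 32 at 60 minutes (46.8% of all genes) and 12 at 120 minutes (34.9%). The 4 genes at 40 minutes without auxin were Tpi1, Pgam1, Pdhb and Slc16a1, one each of upper glycolysis, lower glycolysis, the pyruvate dehydrogenase complex and lactate transport. In plain TPM, Aldoc, Gapdh, Pgls and Taldo1 had also doubled by then. Ldha, Dlat, Slc16a3 and Bpgm first doubled at 90 minutes without auxin, and Pfkp, Pkm and Tkt did not double in either arm.

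The highest release level came at 60 minutes for 18 of 32 genes with auxin (36.8% of all genes) and 20 without (45.6%). With auxin it came at 50 minutes for 5 (7.26%), at 90 for 5 (30.3%) and at 120 for 4 (24.5%). Without auxin it came at 50 minutes for 2, Tpi1 and Slc16a1 (6.79%), at 90 for 7 (23.6%) and at 120 for 3, Slc16a3, Rpe and Bpgm (22.8%). By 120 minutes 25 of 32 were below their 60-minute level with auxin (57.4% of all genes) and 23 without (63.3%). The median step from 60 to 120 minutes was -0.27 with auxin and -0.36 without, against -0.09 with auxin and -0.17 without over all genes. The 4 lactate genes had a median step of 0.32 with auxin and 0.06 without, with Ldha and Slc16a3 higher and Ldhb and Slc16a1 lower at 120 minutes. The length of the gene did not order these steps closely: Spearman's rho between RefSeq span and the step was 0.16 with auxin and 0.24 without, across 32 genes that share their libraries.

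Asynchronous cells separated the roles most. At least 2-fold above mitosis were 10 of 32 genes with auxin (2.5% of all genes) and 11 without (2.82%): Slc2a1, Gpi1, Pfkl, Pfkp, Tpi1, Pgk1, Pgam1, Ldha, Pdk1 and Slc16a3 in both arms, and Gapdh without auxin. The median ratio to mitosis was 1.02 with auxin and 1.08 without for the 7 upper glycolysis genes, but 0.31 in both arms for the 7 pentose phosphate genes, and 0.28 with auxin and 0.33 without over all genes. Below their mitotic level were Pdha1 and Tkt, 2 of 32 in each arm, against 13.8% of all genes with auxin and 11% without. Their summed share of all listed TPM was 0.696% in asynchronous cells with auxin and 0.741% without, the highest of the 9 stages in each arm.

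Conversely, the level at 60 minutes exceeded the asynchronous level for 25 of 32 genes with auxin and 26 without, against 85.9% of all genes in each arm. The median excess on log2(TPM + 1) was 0.44 with auxin and 0.43 without over the 32 genes. That was below the 0.67 with auxin and 0.69 without over all genes. It was 1.03 with auxin and 1.15 without for pentose phosphate genes, above all genes, and 0.28 with auxin and 0.34 without for upper glycolysis, below them. G6pdx stood 4.23-fold above its asynchronous TPM at 60 minutes with auxin and 4.39-fold without. At the other end, Pfkp was at 0.34-fold its asynchronous level with auxin and 0.24-fold without, and Slc16a3 at 0.28-fold with auxin and 0.29-fold without.

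The authors' single Nr5a2 peak list holds 35266 peaks, each with a class code, L, eB, dB or nB, that the sources used here do not define, and gives no signal per library. A peak inside the gene or up to 10 kb away was found for 30 of the 37 genes, 81.1%, against 70.5% of the 13869 listed genes with a RefSeq position. Each of the 8 genes called lower in the authors' deposited table had at least 1 peak. Their median was 4 peaks, against 3 over all genes called lower. Of the 26 genes without a call 20 had a peak, 76.9%, with a median of 2, against a median of 1 over all genes. Peak counts were not adjusted for gene length. Among all genes called lower in the authors' deposited table, 92.0% had a peak, so a peak at each of 8 is close to that share. No peak was found at Pfkl, Pdk3, Pdhb, Dlat, G6pdx, Taldo1 and Bpgm, of which Pdk3 alone carries a call in the authors' deposited table, and that call is higher. Slc2a1, Slc2a3, Hk2, Ldhb and Pdk1 had no other protein-coding gene in the window, whereas the window of Eno3 held 6 others.

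**Figure D4:**
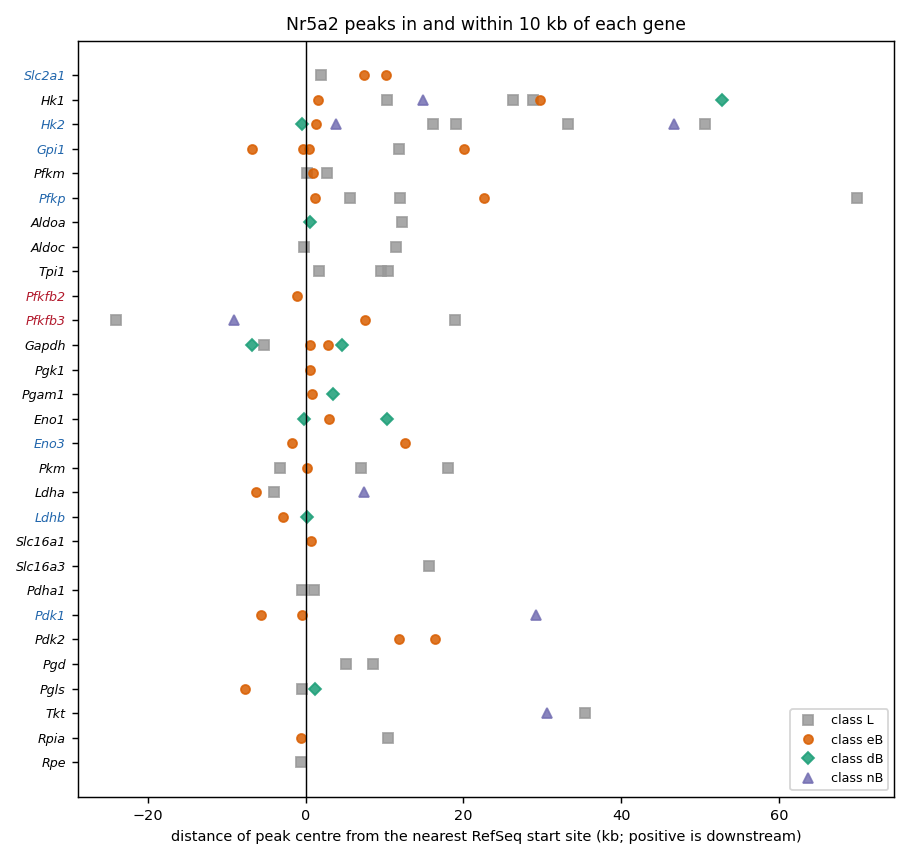
Nr5a2 peaks in and within 10 kb of 29 genes, 84 peaks in all, by distance of the peak centre from the nearest RefSeq start in kb (horizontal axis, positive is downstream) and class code (symbol); blue names are called lower and red names higher in the authors' deposited table. Among the genes called lower, Hk2, Gpi1, Ldhb and Pdk1 have a peak centred within 1 kb of a start, and Slc2a1, Pfkp and Eno3 do not. Many genes without a call also have such a peak, Eno1, Pkm, Aldoc, Pfkm, Gapdh and Aldoa among them. Slc2a3 is left out because no start was given for it.

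The 37 genes had 92 peaks: 39 of class L, 32 of eB, 13 of dB and 8 of nB. A peak of class eB was near 22 of the 37 genes, 59.5%, against 28.2% of all genes. Class L was near 56.8% of the 37 and 54.3% of all genes. Class dB was near 24.3% of the 37 and 17.7% of all genes, and class nB near 18.9% of the 37 and 12.4% of all genes. Slc2a3 had 8 peaks, among them 3 of class dB. Hk2 also had 8, including a dB peak centred at -510 bases from its start. Pdk1 had 3, 1 of them of class eB and centred at -443 bases from its start. Slc2a1, by contrast, had its nearest peak of class L 1960 bases downstream of the start and its eB peaks farther in.

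A peak lay over a promoter window of 13 of the 36 genes with a RefSeq promoter, 36.1%, against 12.4% of 11065 genes. These were Hk2, Gpi1, Pfkm, Aldoa, Aldoc, Gapdh, Eno1, Pkm, Ldhb, Pdk1, Pdha1, Pgls and Rpia. The full letters TCAAGGTCA, searched on both strands, were in none of the 36 and in 0.371% of all genes' promoters. The core AAGGTCA, which every TCAAGGTCA contains, was in Eno1 and Tpi1, 2 of 36 or 5.56%, against 4.12% of all, and the Tpi1 window has no peak. The looser AAGGNCA, which every AAGGTCA also fits, was in 11 of 36, 30.6%, against 19.1%. These letters describe the windows only. For peaks and letters alike, a gene was counted when any of its windows held them, and the 36 genes have 53 windows. The 11065 genes were not matched to them in number of windows or in RNA level.

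Genes around the members were read from lists of the neighbouring steps. Of 46 other genes of glucose carbon use, 35 were listed, and the authors' deposited table calls 3 of them lower and 4 higher, against 7.26% lower and 6.74% higher of all its genes. Those the authors' deposited table calls lower were the transporter Slc2a8, the kinase Pdk4 and pyruvate carboxylase (Pcx). In asynchronous cells Slc2a8 had 1.95 TPM with auxin and 2.10 TPM without, and Pcx had 1.07 TPM with auxin and 1.34 TPM without. Pdk4 had 0.0935 TPM with auxin and 0.232 TPM without there, and did not exceed 0.445 TPM in any group. Over the release Pdk4 was lower with auxin at 3 of 7 times and higher at 4, with a difference of -0.03. Slc2a8 and Pcx were lower at 5 of 7 release times and higher at 2, with differences of -0.06 and -0.02. Those that the authors' deposited table calls higher were the transporter Slc2a4, the mitochondrial pyruvate carrier subunit Mpc2, the dehydrogenase subunit Dld and Prps2, which makes phosphoribosyl pyrophosphate. Mpc2 was higher with auxin at all 7 release times, with a difference of 0.12 and a mean of 3.04 TPM with auxin and 2.74 TPM without.

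Of 22 citric acid cycle genes, 21 were listed, and the authors' deposited table calls 6 lower (7.26% of all its genes) and none higher (6.74%). These were Idh3a, Idh3g and Idh2, which oxidise isocitrate, Ogdh, which oxidises 2-oxoglutarate, and the succinate dehydrogenase subunits Sdhb and Sdhc. The NADP-dependent Idh2 differed most, with 0.989 TPM in asynchronous cells with auxin and 1.97 TPM without, and was lower with auxin at all 7 release times by -0.34. Idh3g was also lower at all 7, by -0.14. The median release difference of the 20 cycle genes of at least 1 TPM was -0.01, against -0.04 for the 32 genes of glycolysis, pyruvate and pentose phosphate and 0.02 over all genes. In asynchronous cells the order was another, with -0.11 for the cycle genes, -0.08 for the 32 genes and -0.04 over all genes.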

How the data were processed

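RNA-seq libraries of total RNA were depleted of ribosomal RNA, stranded and paired-end, per the labels' protocols. The authors deposited TPM values in 1 column for each group. Multiplied by 3, all 246530 values above 0 were whole at 9 decimals, within 0.01 of the last one, against 33.2% as deposited, so each was read as a mean of 3 libraries. The tools named are STAR, RSEM, DESeq2, Bowtie2 and MACS2, with the build mm10 and without versions, per the submitters' processing notes. Whether peaks were called on pooled samples is not given in the sources used here. The deposited table also holds the authors' call for each gene, made on these same samples.

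From the TPM, log2(TPM + 1) was computed per group with Python 3.11.15, numpy 2.4.6 and pandas 2.3.3. It was compared between arms at each stage and with mitosis within an arm. Medians and counts use genes of at least 1 TPM in at least 1 of 18 groups. The planned limma fit needs single libraries, so no test was run, and folds of 1.5 between arms and 2 from mitosis describe size. The computation was tested on simulated data. Peaks were assigned to a gene that they overlap or lie within 10 kb of, on RefSeq positions of GRCm38.p6, with peak coordinates as deposited. Promoter sequences are RefSeq's.

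The 38 genes and the lists of neighbouring steps were chosen with earlier results of these data known. All listed members are named, and of the other lists those with a call by the authors. The alternatives were another pseudocount, no filter, quantile normalization, centring of each stage, leaving out genes with close copies or single release times, and other peak windows.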

Additional observations from a re-analysis of the deposited data

How the results depend on the processing

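Since group means have no spread between libraries, a value is said to have moved when it differed by over 1.5 times or changed sign. No paired analysis was possible because each column is the mean of a group and carries no replicate number, and for the same reason no library could be left out in turn. Of the recomputed summary values, 84 kept their direction and moved less than that, and 18 moved. Quantile normalization brought the median difference in asynchronous cells to -0.0286, the 60-minute median over mitosis to 0.19 with auxin and 0.10 without, with 1 gene at 2-fold in each arm, the step from 60 to 120 minutes to -0.16 with auxin and -0.14 without, and the asynchronous median over mitosis to 0.33 with auxin and 0.43 without, with 7 genes at 2-fold without auxin. By construction it gives all groups 1 distribution, which takes away the shift shared by all genes. Without the 8 genes with close copies, the release median was -0.0284, the asynchronous median over mitosis with auxin 0.36, and 6 genes were at 2-fold in each arm, from fewer genes. Centring gave an asynchronous difference of -0.0457. A pseudocount of 0.1 gave 17 genes at 2-fold in asynchronous cells without auxin, and no filter gave 3 genes called higher in the authors' deposited table. The looser motif AAGGNCA, added after seeing the data, was in 11 promoters. The asynchronous difference of Pdk3 reversed to 0.0384 under quantile normalization and 0.0173 under centring; the cause was not tested. Among genes without a call, the sign of the release mean changed under at least 1 setting for Pfkl, Aldoc, Pdhb, Dlat, Slc16a1, G6pdx, Tkt and Rpia, and that of the asynchronous difference for Pdk2, Dlat, Slc16a3, G6pdx, Pgd and Tkt. Depth is unknown, so the precision of genes below 1 TPM, Pfkfb2 and Pfkfb3 among them, cannot be given. Peak windows of 0, 2 and 50 kb held a peak at 25, 28 and 35 of the 37 genes, against 49.1%, 57.1% and 90.5% of all genes.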
